A study of Mus musculus with 6 samples.

Results

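A set of 42 genes, of 10989 in the deposited table, was expressed in both wild-type (WT) libraries of mouse embryonic stem cells and lay near the bottom of the scale in all 4 lines lacking the RNA helicase gene Ddx5 (KO). A gene entered when both WT values were at least 80 and all 4 KO values at most 40, in the whole-number normalized units of the table. Genes whose names begin with Col, and Spry4, Sp5, Cxcl1, Tnfaip2 and Igf2, were left aside by name. Of the 51 genes that met the value limits, 9 were dropped in this way, namely Col6a1, Col6a2, Col6a3, Col10a1, Col16a1, Sp5, Cxcl1, Tnfaip2 and Igf2. Spry4 missed the limits itself, with 42 and 52 in KO lines 3 and 4. Every gene of the table reached 80 in at least 2 libraries, so a gene with all 4 KO values at most 40 necessarily reached 80 in both WT libraries, as all 51 did. The genes were thus chosen by their KO and WT values in all 6 libraries, and that difference is given below as a description without a test.

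The WT cells were the MPI-II line, with genotype DDX5+/+ (replicates 1 and 2). The KO cells were 4 monoclonal DDX5-/- lines (lines 1 to 4) derived from it with a nickase form of Cas9 and paired guides against the second exon of Ddx5, under G418 selection. Both kinds of cell were grown on feeder cells, which lay beneath the stem cells in the plate, in serum with leukaemia inhibitory factor (LIF), the MEK inhibitor PD0325901 and the GSK3 inhibitor CH99021. The labels do not say whether the feeder cells were removed before the RNA was taken, nor whether the WT replicates were separate cultures, so p-values may measure technical spread only. The design text speaks of triplicates, while 2 WT and 4 KO libraries were analysed here.

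Ddx5 stood at 36433 and 36436 in the WT libraries and at 5854, 8450, 12793 and 5659 in KO lines 1 to 4, a log2 difference of -2.23 (SE 0.32, adjusted p = 0.0081, limma). Library totals ranged from 14612799 to 14722877 units, with medians of 542 to 548, so that sequencing depth cannot be read from the values. WT replicate 2 had 131 genes at 0, and each other library 13 to 19. The correlation of log levels across genes was 0.93 between the WT libraries and 0.97 to 0.99 between KO lines. It was 0.92 to 0.93 between WT replicate 1 and the KO lines, and 0.89 to 0.90 between WT replicate 2 and the KO lines. The WT libraries were thus hardly closer to each other than WT replicate 1 was to the KO lines. Genes of chromosome 6 had a median of 0.45 log2 units more in KO line 4 than in the other KO lines. Genes of chromosome 8 had a median of -0.50 in KO line 1 by the same measure, and a median of -0.41 for WT replicate 1 minus WT replicate 2.

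Fibroblasts and other stromal cells build connective tissue. They secrete collagens and other matrix proteins, the enzymes that cross-link and cleave them, and chemokines and growth factor regulators, and they carry contractile filaments. Naive stem cells in culture express few of these genes, while the fibroblasts often used as feeder cells express many. In bulk RNA, fewer cells of a type and less RNA per cell cannot be told apart.

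The set was in large part stromal. On 6 lists of stromal genes (matrix, matrix remodelling, surface receptors, secreted signals, cytoskeleton and transcriptional regulators) stood 18 of the 42 genes, or 42.9%. The lists hold 523 genes, of which 280 are in the table, or 2.55% of it. A further 9 genes are on none of the lists but are known from mesenchymal or wound-responding cells, and were placed beside them after their names had been seen. That made 27 of 42, or 64.3%. The remaining 15 have no special tie to stroma, and include neuronal genes, interferon-inducible genes, an ERK phosphatase and a subunit of ATP synthase. All lists were drawn up with earlier results of these data known, so the shares are not independent evidence.

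"Near silent" did not mean absent. KO means ran from 3.25 to 34.5 units, and only 3 of the 42 genes were at 0 in any library (Slc5a7, AI607873 and Lrrc32, with 6 zeros in all). The KO mean was 2.29% to 29.9% of the WT mean, with a median of 8.21%, and 27 genes were at least 10-fold higher in WT. Zeb2, Mfap5 and Tmem79 were under 5-fold higher. The log2 difference ranged from -4.01 to -1.39 with a median of -2.71, beside a median of 0.04 over all genes. By the rule, KO and WT values overlapped for none of the 42 genes. Over the whole table, 19.6% of genes had all KO lines below both WT libraries. The 42 genes were not strongly expressed in WT either. Their median was 192.5 units in WT replicate 1 and 149 in WT replicate 2, at the 22nd and 18th percentile of the table. Per kilobase of the longest annotated transcript, the median WT level was 63.1 units, beside 160 over all genes. Among the 42, the WT level per kilobase was 450 for Atp5e, 311 for S100a4, 289 for Ccl2, 212 for Ecm1 and 204 for Cxcl14, down to 6.40 for Kif26b.

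**Figure D1:**
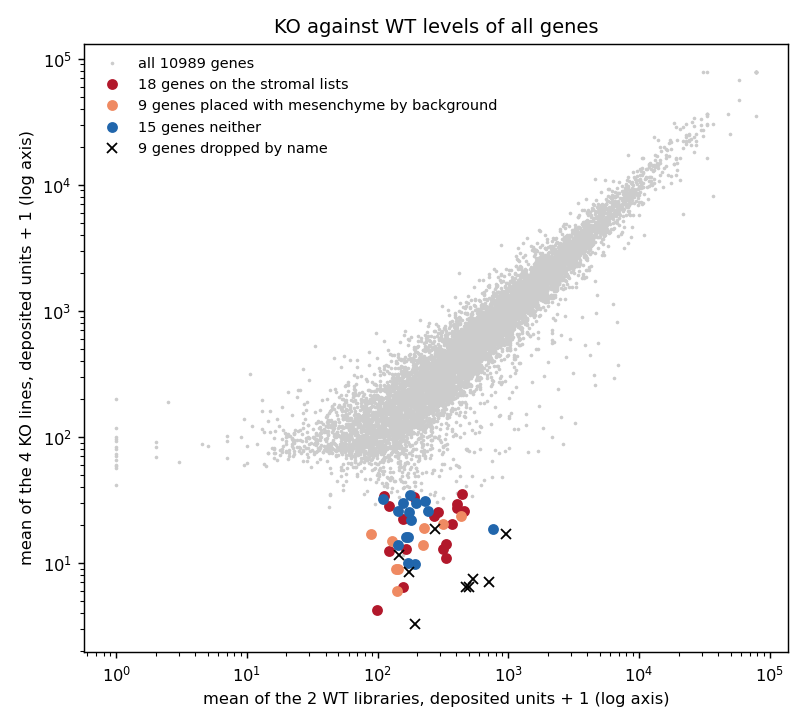
Mean of the 4 KO lines (vertical axis) against the mean of the 2 WT libraries (horizontal axis) for every gene, in deposited units plus 1 on log axes. Red, orange and blue points are the 18 listed, 9 mesenchymal and 15 other genes of the set and crosses the 9 genes dropped by name. The set occupies the lower edge of the cloud, at WT means of 88 to 763 units.

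**Figure D2:**
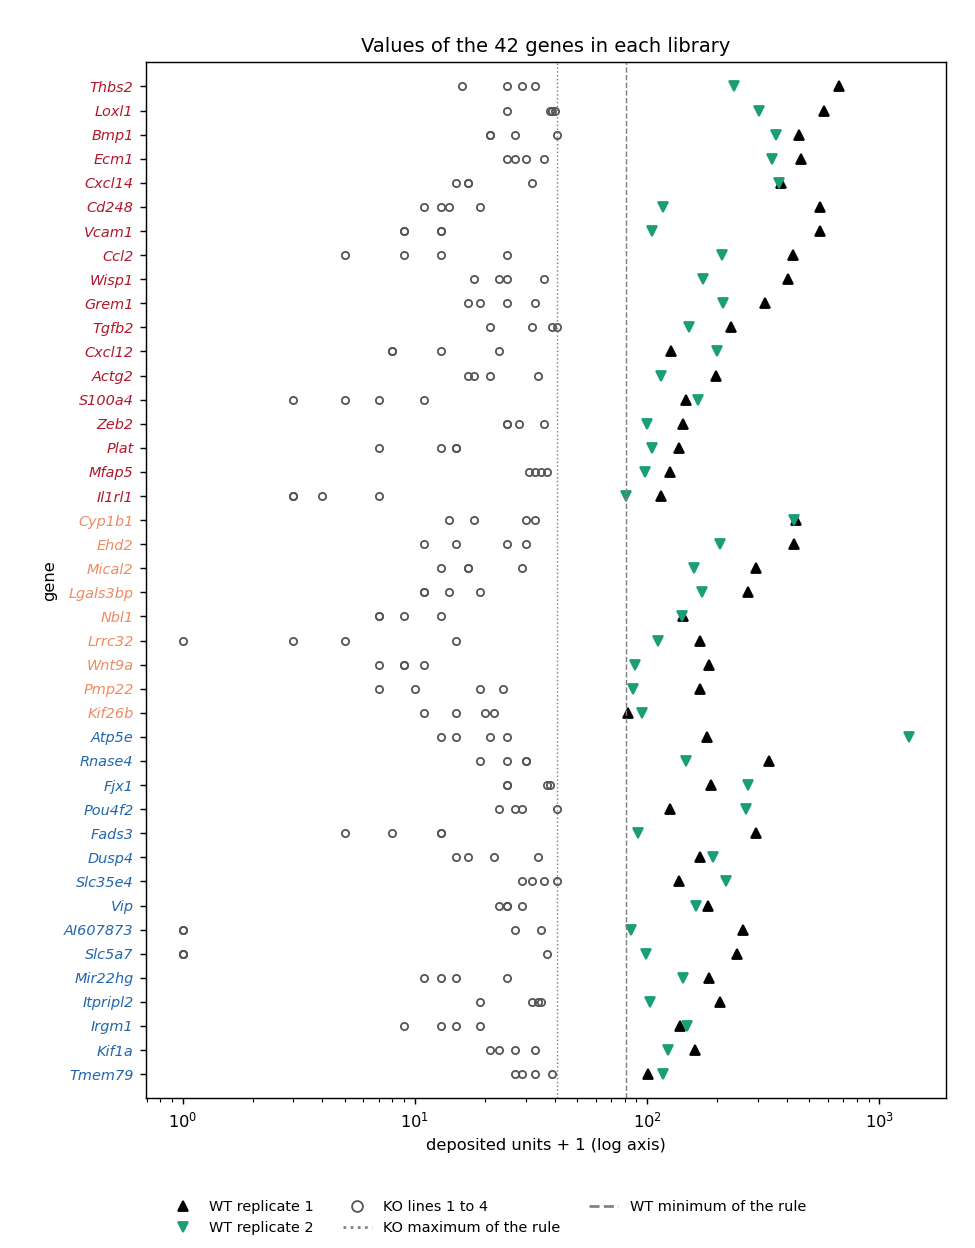
Deposited units plus 1 (log axis) for each of the 42 genes, with triangles for WT replicates 1 and 2 and open circles for KO lines 1 to 4. Names in red are on the stromal lists, in orange placed with mesenchyme and in blue neither. The lines mark the limits of the rule, 40 for KO and 80 for WT.

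Of the 42 genes, 41 are annotated as protein coding and Mir22hg as a long noncoding host gene (GENCODE M21, build mm10). They lay on 15 chromosomes, with 7 on chromosome 11, and the nearest pair, Tmem79 and S100a4 on chromosome 3, was 2267623 bases apart. The set was thus not a cluster of neighbours. RefSeq promoter sequences (GRCm38.p6, from 250 bases before to 50 after the start) were at hand for 29 of the 42 genes and for 8270 genes of the table. The median ratio of observed to expected CpG was 0.61 for the 29, and 0.81 for all (quartiles 0.65 and 0.94). It was 0.46 for 9 genes of the stromal lists, 0.74 for 8 mesenchymal genes and 0.53 for the 12 others. Promoters with a ratio below 0.4 made up 9 of 29, or 31.0%, beside 8.26% of all.

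**Figure D3:**
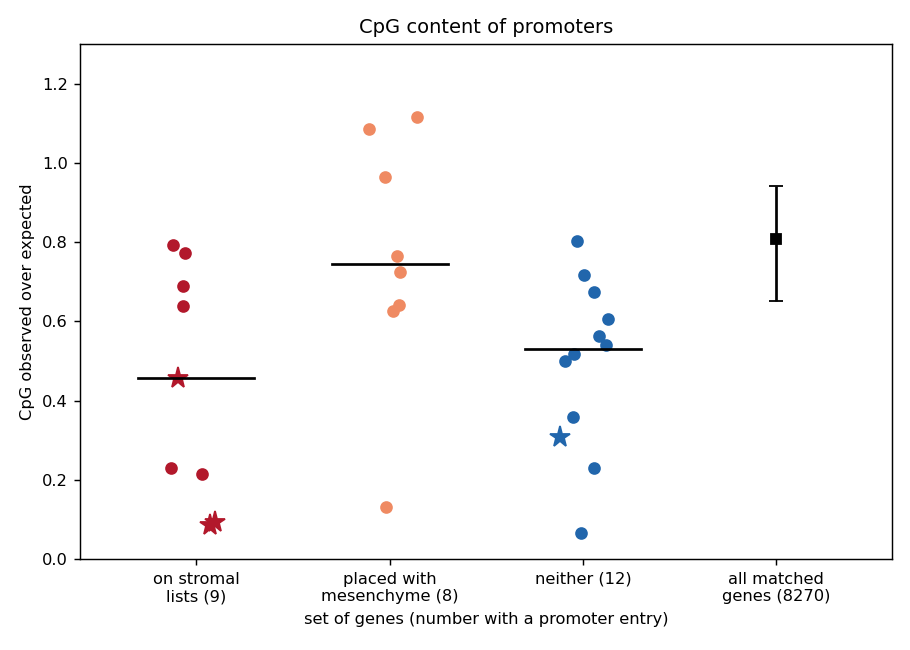
Observed over expected CpG (vertical axis) in the promoters of the 29 matched genes, by group, with bars at the group medians. The square and its bar give the median and quartiles of the 8270 matched genes, 0.81, 0.65 and 0.94. Stars mark the promoters with TATAAA at 40 to 20 bases before the start, Ecm1, S100a4, Tgfb2 and Vip.

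The letters TATAAA, the core of the TATA box at which the transcription machinery can assemble, were searched on both strands over the 300 bases. They occurred in 7 of 29 promoters, or 24.1% (Ecm1, S100a4, Slc5a7, Tgfb2, Thbs2, Tmem79 and Vip), beside 8.30% of all. On the sense strand 40 to 20 bases before the start, where a TATA box works, they occurred in 4 of 29, or 13.8%, beside 1.11% of all. These 4 are shown because they span the set, with a matrix protein, a cytoskeletal protein, a growth factor and a neuropeptide. Each line gives the 60 bases that end just before the start, 5′ to 3′ on the gene's strand, with TATAAA in capitals.
Ecm1, chr3:95739570-95739629, minus strand: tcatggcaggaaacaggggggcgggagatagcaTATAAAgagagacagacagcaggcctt
S100a4, chr3:90603710-90603769, plus strand: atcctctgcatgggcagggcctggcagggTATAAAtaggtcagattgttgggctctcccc
Tgfb2, chr1:186705990-186706049, minus strand: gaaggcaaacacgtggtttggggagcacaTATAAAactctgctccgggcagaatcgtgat
Vip, chr10:5639158-5639217, plus strand: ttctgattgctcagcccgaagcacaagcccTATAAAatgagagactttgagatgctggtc
The first T lay 27 bases before the start in Ecm1, 31 in S100a4, 31 in Tgfb2 and 30 in Vip. Of other motifs, searched on both strands, the AP-1 site TGANTCA was in 3 promoters, or 10.3% (Ecm1, Irgm1 and Zeb2), beside 5.49% of all. The TEAD site GGAATG was in 5, or 17.2%, beside 14.1%, the CCAAT box CCAAT in 14, or 48.3%, beside 44.5%, and the GC box GGGCGG in 19, or 65.5%, beside 71.2%. The TCF site CTTTGAT was in Cxcl12 alone, or 3.45%, beside 2.91%. The cAMP response element TGACGTCA and the CArG box of serum response factor were in none of the 29, beside 3.86% and 1.58% of all. A match is a run of letters and not a measured site, and CCAAT and the CArG box can share letters with TATAAA.

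Values are given below for WT replicates 1 and 2 and then for KO lines 1 to 4. Structural and processing proteins of the matrix made up 7 of the 42, and all 7 had the higher value in WT replicate 1. Thbs2, a thrombospondin of the pericellular matrix, stood at 671 and 236 in WT and at 28, 15, 32 and 24 in KO. Loxl1, an oxidase that cross-links elastic fibres, was at 579 and 302 against 38, 39, 37 and 24. Bmp1, the protease that trims procollagens, was at 450 and 358 against 20, 26, 40 and 20. The highest KO line of these 3 genes was 32 to 40, and every WT value was at least 236. Ecm1, a secreted matrix glycoprotein with one of the TATA promoters shown above, had 460 and 344 in WT and 35, 26, 24 and 29 in KO. Wisp1, a matricellular CCN protein, had 402 and 173 against 35, 22, 24 and 17. Plat, the tissue plasminogen activator, had 136 and 104 against 6, 14, 14 and 12. Mfap5, a microfibril protein, showed the smallest proportional difference of the 42, with 124 and 97 in WT and 30, 32, 34 and 36 in KO, 29.9% of the WT mean.

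Of 8 secreted signals and binding proteins, 3 were chemokines. Ccl2, which draws monocytes, stood at 425 and 209 in WT and at 24, 4, 8 and 12 in KO. Cxcl14 was even between the WT libraries, at 376 and 368, with 31, 16, 14 and 16 in KO. Cxcl12, the stromal ligand of the receptor Cxcr4, was one of the genes higher in WT replicate 2, at 126 and 199 against 22, 7, 7 and 12. The others, apart from Lgals3bp, act in growth factor pathways. Grem1, a secreted inhibitor of bone morphogenetic proteins, had 322 and 212 in WT and 32, 18, 16 and 24 in KO. Nbl1, of the same inhibitor family, had 142 and 140 against 12, 6, 8 and 6. Both inhibitors were thus low in all 4 lines. Tgfb2, a transforming growth factor ligand, had 229 and 150 against 40, 31, 38 and 20, with line 1 at the limit. Wnt9a, a Wnt ligand of mesenchyme, had 184 and 88 against 8, 10, 6 and 8. Lgals3bp, a secreted glycoprotein that binds galectins, had 272 and 172 against 13, 10, 18 and 10.

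The 6 surface and membrane-bound proteins had a median KO level of 3.78% of WT, beside 8.21% over all 42 genes. Vcam1, an adhesion molecule for leukocytes, stood at 556 and 104 in WT and at 12, 8, 12 and 8 in KO. Cd248, or endosialin, a marker of stromal and perivascular cells, was at 552 and 116 against 10, 13, 18 and 12. WT replicate 1 exceeded replicate 2 by 5.35-fold for Vcam1 and 4.76-fold for Cd248, and replicate 2 still lay above every KO line. Il1rl1, the receptor of interleukin 33, sat at the WT limit, with 114 and 80 against 6, 2, 2 and 3. Lrrc32, which anchors latent transforming growth factor at the cell surface, had 168 and 110 against 14, 0, 4 and 2. Pmp22, a membrane protein of myelin that fibroblasts also make on growth arrest, had 168 and 86 against 18, 9, 6 and 23. Ehd2, a protein of caveolar necks, had 429 and 204 against 29, 10, 24 and 14.

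The cytoskeletal and intracellular stromal genes followed the same outline. S100a4, a calcium-binding protein also called fibroblast-specific protein, was nearly equal in both WT libraries, at 146 and 164, and had 10, 2, 6 and 4 in KO. Actg2, the enteric smooth muscle actin, had 197 and 114 against 33, 17, 20 and 16. Mical2, an oxidase that disassembles actin, had 292 and 158 against 28, 12, 16 and 16. Line 1 held the highest KO value in all 3 of these. Kif26b, an atypical kinesin, was only 82 and 94 in WT, with 14, 10, 19 and 21 in KO. Zeb2, a repressor that acts in epithelial to mesenchymal transition, was the only transcription factor of the stromal lists in the set, at 142 and 99 against 35, 27, 24 and 24. Cyp1b1, a cytochrome P450 of mesenchymal cells, had 437 and 429 in WT and 29, 17, 32 and 13 in KO.

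The 15 remaining genes were mixed in function, and their KO median was 11.7% of WT, beside 7.24% for the 18 listed and 5.88% for the 9 mesenchymal genes. Neuronal genes were 4 of the 15. Vip encodes vasoactive intestinal peptide and had 182 and 162 in WT and 24, 22, 24 and 28 in KO. Slc5a7, the choline transporter of cholinergic neurons, had 244 and 98 against 0, 0, 0 and 36, so that its KO level came from line 4 alone. Pou4f2, a transcription factor of retinal ganglion cells, was higher in WT replicate 2, at 125 and 265 against 22, 26, 40 and 28. Kif1a, an axonal motor, had 160 and 122 against 32, 22, 20 and 26. These 4 genes mark no one neuronal type. The neural marker list held 4 genes in the table, none of them in the set, of which only Stmn2 passed the test (-0.77, SE 0.17, adjusted p = 0.027, limma), with 4472 and 6983 in WT and 3470, 3330, 3278 and 3036 in KO. Its call was lost without any 1 of the 4 KO lines (adjusted p up to 0.077, limma).

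Of interferon-inducible genes, the set held 2. Irgm1, an immunity-related GTPase, stood at 138 and 148 in WT and at 18, 8, 12 and 14 in KO. AI607873, a member of the interferon-inducible cluster on chromosome 1, had 258 and 84 against 0, 26, 0 and 34. Among 12 other interferon genes in the table, 2 were lower in KO (Ddx58 and Irf9), 1 higher (Stat2) and 9 did not pass, with a median log2 difference of -0.02. Over all genes, 7.34% were lower and 9.75% higher at an adjusted p below 0.05. Ddx58, the RNA sensor RIG-I, was the gene of that list with the largest difference, at 1180 and 851 in WT and 200, 123, 128 and 134 in KO (-2.68, SE 0.23, adjusted p = 0.0027, limma). Stat2, a signalling factor of the same pathway, was higher, at 268 and 136 against 469, 590, 524 and 917 (1.58, SE 0.33, adjusted p = 0.022, limma). The calls of Stat2 and Irf9 were lost without WT replicate 2, KO line 2 or KO line 3, with adjusted p up to 0.091 for Stat2 and 0.071 for Irf9 (limma). The median of the list was 0.40 without WT replicate 1 and -0.70 without WT replicate 2.

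Dusp4 was the gene tied to ERK signalling, which both genotypes had under a MEK inhibitor. It encodes a nuclear phosphatase that switches ERK off, and stood at 168 and 192 in WT and at 21, 16, 14 and 33 in KO. Of 22 other ERK targets in the table, 9 were lower in KO, or 40.9%, beside 7.34% of all genes. None was higher and 13 did not pass, with a median of -0.63. When KO lines 2, 3 and 4 were omitted in turn, 3, 4 and 6 were lower, and without WT replicate 1 there were 6 lower and 2 higher. Dusp5, a related phosphatase, missed the set by 2 units, at 177 and 320 against 23, 38, 34 and 42 (-2.39, SE 0.33, adjusted p = 0.0077, limma).

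Atp5e showed the largest proportional difference of the 42, and the least even WT values. It encodes the epsilon subunit of mitochondrial ATP synthase and spans chr2:174461072-174464105 on the minus strand. It stood at 180 in WT replicate 1 and 1346 in WT replicate 2, and at 24, 12, 20 and 14 in the KO lines. All 4 KO values were thus below the lower WT value, and the WT mean was 43.6 times the KO mean. From the lower WT value alone the highest KO line differed by 156 units. WT replicate 2 was at least 5-fold above replicate 1 in 60 genes of the table, and Atp5e was the only one in the set. Atp5k, which encodes another small subunit, had a like WT split of 162 and 1561, but KO values of 165, 131, 174 and 117, level with WT replicate 1. The 16 other Atp5 genes had log2 differences between -1.72 and 0.93, none of which passed the test, the lowest being that of Atp5k.

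The last 7 genes, with Mir22hg among them, share no pathway. Fads3, of the fatty acid desaturase family, had 294 and 90 in WT and 12, 4, 12 and 7 in KO. Rnase4, a secreted ribonuclease, had 334 and 146 against 29, 18, 24 and 29. Fjx1, a secreted relative of the four-jointed kinase, had 188 and 270 against 37, 24, 36 and 24. None of these is a standard marker of one tissue. Itpripl2, an uncharacterized membrane protein, had 206 and 102 against 34, 18, 31 and 33. Slc35e4, of a family of nucleotide sugar transporters, had 136 and 218 against 31, 35, 40 and 28. Tmem79, a membrane protein of the skin barrier, had the most equal levels in proportion after Mfap5, at 100 and 116 in WT and 38, 26, 28 and 32 in KO. Its exons share 1278 bases with Glmp on the opposite strand. Whether the counting used strand is not given in the sources used here, so reads of that pair may not be separated. Rnase4 likewise shares 219 bases with Ang on the same strand, S100a4 302 bases with Gm42674 on the same strand, and Zeb2 653 bases, Kif26b 909 bases, Tgfb2 124 bases and Vcam1 61 bases with antisense genes.

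Mir22hg is the host transcript of miR-22 (chr11:75461539-75466676, plus strand), and had 183 and 142 in WT and 24, 10, 14 and 12 in KO. The mature miRNAs, which these libraries did not measure, lie inside it and are shown because they are its known product, with bases 2 to 8, the seed, in capitals (RefSeq, GRCm38.p6).
mmu-miR-22-5p: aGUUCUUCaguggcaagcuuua
mmu-miR-22-3p: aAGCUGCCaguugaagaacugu
DDX5 is known as a cofactor of the Drosha complex, which cuts miRNA hairpins out of primary transcripts such as this one. The table holds the host gene as a whole, and the exons of Mir22hg share 206 bases with Tlcd2 on the same strand.

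The difference between the WT libraries was not part of the rule, beyond both values reaching 80. WT replicate 1 was higher in 32 of the 42 genes, beside 54.0% of all genes. It was higher in 16 of the 18 listed genes, or 88.9%, in 8 of the 9 mesenchymal genes and in 8 of the 15 others, or 53.3%. The median log2 difference of replicate 1 minus replicate 2 was 0.51 for the listed genes, 0.62 for the mesenchymal genes and 0.15 for the others, beside 0.04 over all genes. The 262 genes of the stromal lists outside the set had a median of 0.45. At least 2-fold higher in replicate 1 were 12 of the 42 genes, or 28.6%, beside 7.1% of all genes. By group these were 5 listed genes (27.8%), 2 mesenchymal genes (22.2%) and 5 of the others (33.3%), so this measure did not set the stromal genes apart. The 12 were Vcam1, Cd248, Fads3, Thbs2, AI607873, Slc5a7, Wisp1, Rnase4, Ehd2, Wnt9a, Ccl2 and Itpripl2. With 1 library on each side these are descriptions. Of the 3 genes on chromosome 8, whose median over all its genes was -0.41, Pou4f2 and Dusp4 were higher in replicate 2 and Plat in replicate 1. The part of the chromosome in these values was not tested.

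**Figure D4:**
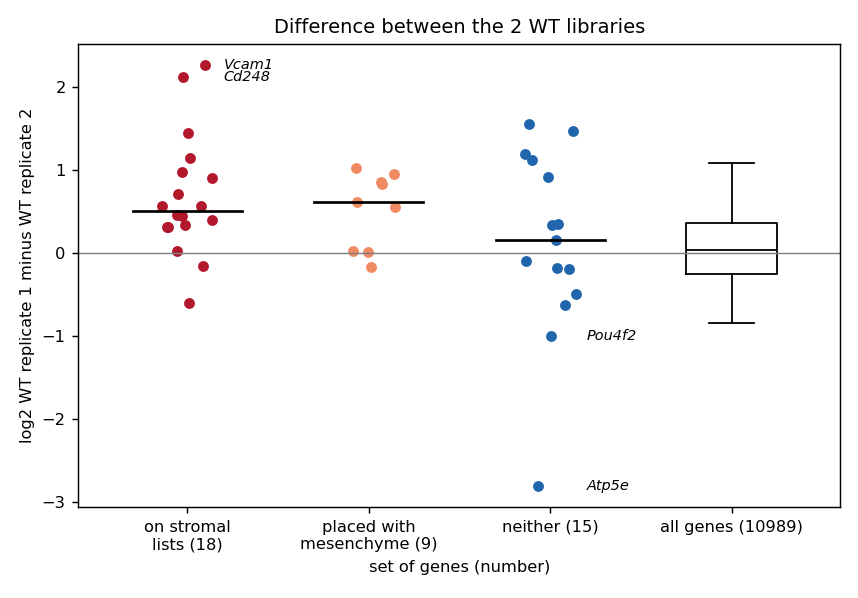
Log2 difference of WT replicate 1 minus WT replicate 2 (vertical axis) for the genes of the set by group, with bars at the medians of 0.51, 0.62 and 0.15. The box shows the median and quartiles of all 10989 genes, its whiskers the 5th and 95th percentiles. Most stromal points lie above 0, and Atp5e lies lowest at -2.81.

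The KO lines also had an order. Line 1 held the single highest KO value in 22 of the 42 genes, or 52.4%, and line 2 in 2, or 4.76%. Line 2 was the single lowest in 15, or 35.7%. Over all genes, line 1 was highest in 30.7%, line 2 in 15.9% and line 4 in 30.9%, and line 2 was lowest in 17.8%. Line 1 was highest in 11 of the 18 listed genes, or 61.1%, and in 11 of the other 24, or 45.8%. Line 2 was lowest in 3 of the listed genes, or 16.7%, and in 12 of the other 24, or 50.0%. The low KO values thus differed between lines, with medians over the 42 genes of 24, 15.5, 18.5 and 18.5 in lines 1 to 4.

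How near genes came to the limits is given here without a test. Just inside the KO limit, with a highest line of 40, stood Bmp1, Pou4f2, Slc35e4 and Tgfb2, followed by Loxl1 with 39. Just outside, at 42, were Dusp5 and 3 others. Pappa, a protease of insulin-like growth factor binding proteins, had 248 and 136 in WT and 42, 20, 29 and 24 in KO. Tgfbr2, a receptor for transforming growth factors such as Tgfb2, had 339 and 232 against 38, 20, 18 and 42. A730046J19Rik had 84 and 227 against 0, 0, 0 and 42. At 43 followed Fam101b, Murc and Zfp703, and at 44 Filip1l. On the WT side the lowest values inside were 80 for Il1rl1, 82 for Kif26b, 84 for AI607873, 86 for Pmp22 and 88 for Wnt9a, and none lay outside.

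The stromal genes outside the set show what the limits left out. Of 262 such genes in the table, which include Igf2 and Cxcl1, 96 were lower in KO, 9 higher, and 157 did not pass (limma, adjusted p below 0.05). Without KO line 2 the lower ones numbered 50, without KO line 3 53, and the higher ones 28 without WT replicate 1. In the fit to all libraries 36.6% were lower, beside 7.34% of all genes, with a median log2 difference of -0.52. The matrix list gave 19 lower and 2 higher of 41, with a median of -0.86. Remodelling gave 16 and 2 of 29 (-0.86), surface 14 and 1 of 42 (-0.48), secreted signals 10 and 1 of 32 (-0.49), cytoskeleton 24 and 1 of 62 (-0.53), and regulators 13 and 2 of 56 (-0.19). Omission of KO line 2 reduced the lower genes to 12 for matrix, 7 for remodelling, 9 for surface, 9 for cytoskeleton and 5 for regulators. Omission of KO line 3 gave 12, 9, 9, 9 and 6, and omission of KO line 1 gave 16 for cytoskeleton and 8 for regulators. The secreted signals kept a count of 8 to 10 lower in every such fit. Without WT replicate 1 there were 15 lower genes for cytoskeleton, and regulators had 10 lower and 11 higher, with a median of -0.04. The higher genes then numbered 5 for matrix, 4 for remodelling, 4 for secreted signals, and 2 each for surface and cytoskeleton. Fbln2, a fibulin of basement membranes, had a larger log2 difference than any gene of the set, at 3138 and 3344 in WT and 208, 88, 138 and 79 in KO (-4.60, SE 0.34, adjusted p = 0.0019, limma). Timp3, a matrix-bound protease inhibitor, had 2098 and 1290 against 95, 60, 74 and 76 (-4.20, SE 0.24, adjusted p = 0.0018, limma). Both stayed outside because their KO values were above 40, although their KO means were 3.96% and 4.50% of WT. By that percent some genes of the set lay lower, such as Atp5e at 2.29% and Vcam1 at 3.03%. The log2 values understate the differences of low genes, so the ranking by log2 does not hold by ratio. Prrx1, a homeodomain factor of limb mesenchyme, had 640 and 298 against 42, 32, 48 and 36 (-3.07, SE 0.33, adjusted p = 0.0043, limma). Tgfbr2 differed by -2.78 (SE 0.35, adjusted p = 0.0065, limma). Srf, the factor that drives many actin genes, had 2350 and 2320 against 1008, 982, 918 and 850 (-1.30, SE 0.10, adjusted p = 0.0021, limma). Stc2, a secreted glycoprotein, went the other way, at 68 and 52 against 394, 480, 302 and 455 (2.49, SE 0.22, adjusted p = 0.0027, limma).

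A list of 29 genes that define fibroblasts had 24 in the table, among them Ccl2 and Loxl1 of the set. Of the 22 others, 18 were lower in KO, or 81.8%, beside 7.34% of all genes. None was higher and 4 did not pass, with a median of -2.57. Leaving out 1 KO line gave 14 to 17 lower. The median was -1.99 without WT replicate 1 and -2.82 without WT replicate 2. Both are over fewer genes, as Col6a1 and Col6a2 then fell below the filter on expression. Col6a1 and Col6a2 are among the 18 and met the value limits themselves. The 4 were Cdh11, a mesenchymal cadherin, Pdgfrb, a receptor of platelet-derived growth factor, Mmp2, a gelatinase, and Fn1, fibronectin. Pdgfrb had 424 and 176 in WT and 108, 119, 152 and 216 in KO, a level of 49.6% (-0.87, SE 0.39, adjusted p = 0.15, limma). Its highest KO line thus lay above WT replicate 2. Cdh11 was at 49.2% of WT (adjusted p = 0.086, limma) and Mmp2 at 51.7% (adjusted p = 0.086, limma). Fn1 was at 110% (adjusted p = 0.28, limma). None of the 24 was at 0 in any library, and Fap, Lum, Pdgfra, Twist1 and Twist2 were not in the table. The summed level of the list was 102163 and 67834 in WT replicates 1 and 2 and 44071 to 47397 in KO. Line 1 held the single highest KO value in 14 of the 22 genes, or 63.6%, and WT replicate 1 exceeded replicate 2 by a median of 0.82. As a group, though not gene by gene, these 22 markers resembled the set in both respects. Line 1 was also highest in 45.8% of the 24 genes of the set off the stromal lists. The part of the markers in the levels of the set was not tested. The order of KO lines was not general to stromal genes. Over the 262 stromal genes outside the set, line 1 was the single highest in 34.7% and line 4 in 33.6%. Over all genes the shares were 30.7% and 30.9%.

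**Figure D5:**
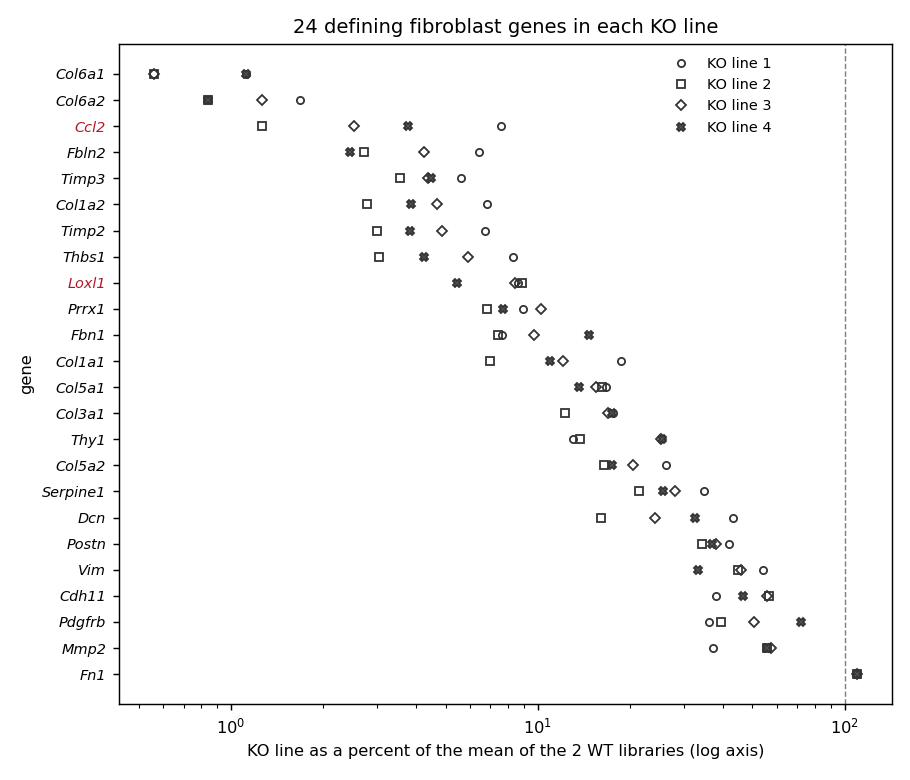
Level of the 24 fibroblast-defining genes in each KO line as a percent of the WT mean (log axis), with Ccl2 and Loxl1 of the set in red. The dashed line is at 100%. Levels span under 2% for Col6a1 to about 110% for Fn1.

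Markers of other cell types gave smaller counts, but few of these genes could be tested. In the table were 4 of 14 endothelial genes, 2 of 12 muscle, 9 of 15 epithelial and 4 of 12 neural genes. Of the extraembryonic endoderm list 6 of 16 genes were there, and of the streak list 3 of 16. Of 16 macrophage and blood genes 2 were in the table, and neither passed. Of 4 endothelial genes 1 was higher in KO, Pecam1, an adhesion molecule also made by stem cells, at 1204 and 1169 in WT and 2990, 3490, 3148 and 3008 in KO (1.40, SE 0.096, adjusted p = 0.0018, limma). None of 2 muscle, 6 extraembryonic endoderm and 3 primitive streak genes passed. Of 9 epithelial genes 1 was higher, Cldn6, a claudin of early epithelia, at 20 and 10 against 70, 82, 55 and 110 (1.65, SE 0.37, adjusted p = 0.027, limma). Its call was lost without WT replicate 2 or any 1 KO line (adjusted p up to 0.098, limma). Their summed levels in WT and KO were 3418 and 2359 against 2228 to 2705 for macrophage and blood, 1902 and 1881 against 3549 to 4009 for endothelium, and 10788 and 13092 against 12453 to 25232 for epithelium. They were 228 and 146 against 264 to 364 for muscle, 5170 and 3095 against 3022 to 4345 for extraembryonic endoderm, 617 and 870 against 341 to 694 for the streak and 5879 and 9697 against 5070 to 6201 for the neural list. Without WT replicate 2, 1 macrophage and blood gene and 1 extraembryonic endoderm gene were lower and 1 of the latter higher, without KO line 1 1 macrophage and blood gene was lower, and without WT replicate 1 1 muscle gene was higher. None of these lists held a gene of the set. The naive pluripotency list, which checks the label of embryonic stem cells, had 22 of 23 genes in the table. Of these, 3 were lower (Gbx2, Klf4 and Nr0b1), 3 higher (Nanog, Prdm14 and Dppa2) and 16 did not pass, with a median of -0.01. The lower ones made up 13.6%. Over all genes 7.34% were lower and 9.75% higher. Gbx2 and Klf4 kept their calls without each library in turn, and the other 4 lost theirs in 2 to 5 of these fits.

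Of the pathway lists, NF-kB targets included Ccl2 and Vcam1 of the set. Among 15 others 7 were lower, or 46.7%, beside 7.34% of all genes. Of the rest 1 was higher (Bcl3) and 7 did not pass, with a median of -0.72. Cxcl1 and Tnfaip2, dropped by name, are among the 7 lower ones and met the value limits themselves. Without WT replicate 1 the median was -0.26, over fewer genes, as Cxcl1 and Tnfaip2 then fell below the filter on expression. Without KO lines 2 and 3 in turn, 3 and 4 were lower. Csf1, the macrophage growth factor, had 1340 and 441 in WT and 84, 24, 62 and 18 in KO (-3.82, SE 0.59, adjusted p = 0.010, limma). Of 13 Wnt targets 6 were lower, or 46.2%, none higher and 7 did not pass, with a median of -0.94. Sp5, dropped by name, is one of the 6. Leaving out KO line 2, KO line 3 or WT replicate 2 left 4, 4 and 3 lower. Of 18 p53 targets 1 was lower, or 5.56% (Aen, whose call was lost without any 1 library), and 17 did not pass.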

How the data were processed

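RNA-seq libraries of 2 WT and 4 KO samples were analysed. The authors deposited whole-number normalized values per gene, used here as a score without a fixed unit, since library totals lie between 14612799 and 14722877 and library distributions nearly coincide. RSEM 1.2.17, Bowtie2 2.2.0 and mm10 are named in the submitters' processing notes. The normalization step, the annotation and the counting of strand are not stated in any label or header at hand. Values were divided by a constant of 14.7 units and analysed as log2(value + 1), so that a fold change is understated for low genes. A filter of 1 scaled unit in 2 libraries removed 0 genes from the fit to all 6 libraries. It was applied again in each fit with 1 library left out. Without either WT library it kept 10975 genes, and without 1 KO line 10987 to 10989. Among the genes lost without a WT library were Col6a1, Col6a2, Cxcl1 and Tnfaip2. Of the set, Fads3, Il1rl1, Lrrc32, Nbl1, Plat, S100a4, Vcam1 and Wnt9a were lost. Counts and medians of those fits thus leave out some of the genes lowest in KO. The test was limma 3.58.1 (lmFit, eBayes with trend, two-sided) in R 4.3.3 with Benjamini-Hochberg adjustment over 10989 genes, called below 0.05, and was tested on simulated data.

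The genes of the set, and all gene lists, were chosen with earlier results of these data known. All genes of the set were named, with values in every library, and genes outside it were named where a list holds them and a result turns on them, by size of change, or where they lay next to a limit. All 42 genes and 10941 of 10989 matched GENCODE M21 (mm10). Promoters and miRNAs came from RefSeq tables. Figures were drawn with matplotlib 3.10.9.

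Alternatives were other limits, scalings, pseudocounts and filters, a replicate block and leaving out each library. The precision is limited by the number of libraries, as the depth is unknown.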

Additional observations from a re-analysis of the deposited data

Results flagged for a closer look

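In 3 of the 42 genes a single KO line stood apart from the other 3 by a gap above Dixon's critical value for 4 samples, and chance alone gives such a gap in about 1 in 20 groups. Cxcl14 had 31 in line 1 beside 14 to 16 in the others. Loxl1 had 24 in line 4, below 37 to 39 in the others. Slc5a7 had 36 in line 4 and 0 in the others.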

How the results depend on the processing

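The set depends on its limits. A KO ceiling of 20 left 11 genes (5 on the stromal lists) and one of 60 gave 92 (29). A WT minimum of 160 left 15 (8). Without dropped names 51 genes met the rule, and quantile-normalized values gave 58 (22 listed). Leaving out 1 library only removes a condition of the rule, so the set could not shrink. It gave the same 42 genes without either WT library, as the KO limit alone fixes them. Without 1 KO line it gave 45 to 50 genes, 18 to 22 of them listed. Of the 18 listed genes, 9 were on the matrix, remodelling and surface lists and 2 on the fibroblast-defining list. The median log2 difference of WT replicate 1 minus replicate 2 was 0.45 over the 42 genes, 0.34 with a pseudocount of 5 and 0.35 with quantile normalization. Over the listed genes it was 0.51, and 0.40 with a pseudocount of 5. Of 505 log2 differences of the 42 genes under the alternatives, 0 reversed, in a range of -5.42 to -0.79. The choice of genes fixes that direction. Their size was less stable, and 116 moved by more than the gene's pooled standard deviation within WT and KO. These included all 42 with a pseudocount of 5 and 35 with one of 0.2. A filter of 10 scaled units in 2 libraries kept 17 of the 42 genes.

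Leaving out 1 library changed the counts of calls in both directions. Lower genes numbered 235 (without KO line 2) to 1300 (without WT replicate 1), higher genes 237 to 2004. Omitting KO line 3 gave 266 and 306, and omitting KO line 1 gave 685 higher genes. Lower stromal genes outside the set numbered 50 to 100, and higher ones 1 to 28. The higher ones came to 28 without WT replicate 1, and to 5, 1 and 3 when KO lines 1, 2 and 3 were omitted in turn. The cause was not tested. Ddx5, Fbln2, Timp3, Prrx1, Tgfbr2, Srf, Stc2, Ddx58, Dusp5, Pecam1 and Csf1 kept their calls in all 6 such fits. A replicate block left 18 lower and 2 higher genes, and 8 and 0 of the stromal ones. The labels do not say that the numbers pair samples, and deviations of same-numbered samples correlated at 0.14 and 0.10 across genes.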
